A study of Mus musculus with 4 samples.

Results

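The genes described here are 10 members of the insulin pathway of the liver and of the gene set controlled by the transcription factor FoxO1. They are the insulin receptor Insr, the receptor substrates Irs1 and Irs2, the inhibitory adaptor Grb10, the PI3-kinase regulatory subunit Pik3r1, the kinase Akt2, the transcription factors Foxo1 and Foxo3, and the secreted IGF binding proteins Igfbp1 and Igfbp2. They were found by their symbols in the scanner files, from a list drawn up with earlier results of these data known. All 10 were on the arrays, with 19 of the 39392 probes used, among 30439 genes or transcripts in all.

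Liver RNA of male C57BL/6J mice was hybridized to 4 one-color Agilent arrays, 1 array per group, so no group had a second sample and no spread between animals could be measured. Control livers (Cont) are labelled wild type in the series, and the study's methods describe them as floxed (Drp1 flox/flox) littermates without the Cre. Drp1LiKO livers lacked the mitochondrial fission protein Drp1, whose gene Dnm1l was deleted by a Cre driven by the albumin promoter, which acts in hepatocytes and leaves the gene in other liver cells. All mice had eaten a high-fat diet from 4 weeks of age, for 24 weeks per the labels. A fast of 17 h is recorded for all 4 groups, followed by 4 h of eating for Cont_refed and Drp1LiKO_refed. The source names of the Cont and Drp1LiKO arrays state no feeding condition. These arrays are read as fasted from the recorded fast and from how the study describes the experiment. Each value called fasted depends on that reading. The methods place experiments on fasted mice in the morning and the collection of refed samples in the afternoon. Fasted livers for electron microscopy were taken in the afternoon, and no hour is given for the array livers. Feeding and hour of the day therefore cannot be told apart.

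Insulin that arrives after a meal binds its receptor on hepatocytes, which phosphorylates IRS proteins. These recruit PI3-kinase, whose lipid product activates AKT, and AKT phosphorylates FoxO1 and drives it out of the nucleus. FoxO1 in the nucleus of the fasted hepatocyte raises genes of glucose production and also Igfbp1, Irs2 and Insr, so the mRNA of these genes is commonly read as a gauge of insulin action, while insulin itself raises genes of glucose use and fat synthesis.

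The promoter of Igfbp1 holds a well-known insulin response sequence, an element with the core CAAAACA that FoxO proteins can bind. It is shown here with that of Irs2 because these genes had the most negative refeeding differences in both genotypes among the members measured on all arrays. The bases lie directly upstream of the annotated start in the GRCm38.p6 build of RefSeq, at chr11:7197637-7197786 on the plus strand for Igfbp1 and at chr8:11008930-11009029 on the minus strand for Irs2. Capitals mark CAAAACA or its reverse complement TGTTTTG.
Igfbp1: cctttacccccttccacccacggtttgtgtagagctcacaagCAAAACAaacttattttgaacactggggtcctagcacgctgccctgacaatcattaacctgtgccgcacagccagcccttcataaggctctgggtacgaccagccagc
Irs2: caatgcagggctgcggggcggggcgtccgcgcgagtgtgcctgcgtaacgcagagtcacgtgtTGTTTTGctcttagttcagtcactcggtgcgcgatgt

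The motif began 108 bases upstream of the start of Igfbp1 and 37 bases upstream of that of Irs2, and the Irs1 window held it at 111 and at 32 bases upstream. Windows of 300 bases, from 250 before to 50 after a start, were found for 9 of the 10 genes, the exception being Insr. These 9 genes had 15 windows, since some have several annotated starts. CAAAACA on either strand was in 3 of the 15 windows, each of a different gene, and in 6.28% of all 32851 windows. The FoxO site GTAAACA, searched on both strands, was in none of the 15 and in 3.65% of all windows. A match of letters describes the sequence and does not show that a factor was bound.

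Each value below comes from probes of 60 bases. As examples, the probes that read Irs2 (mm9, chr8:11004490-11004549, minus strand) and Foxo1 (mm9, chr3:52150183-52150242, plus strand) lie in the coding sequence.
Irs2 probe: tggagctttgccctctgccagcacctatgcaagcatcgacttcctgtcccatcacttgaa
Foxo1 probe: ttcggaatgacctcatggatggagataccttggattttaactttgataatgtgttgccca

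Levels are given as the log2 of a signal over its array's 75th percentile of signals, and they compare arrays for 1 probe, not genes with each other. A difference is the level on one array minus that on another, on the same log2 scale, and the SE beside it is the measurement error from the scanner's error model, which leaves out differences between mice. A gene was counted as higher or lower when the difference was at least 2-fold and the brighter signal was well above background. Between 48.7% and 58.2% of gene spots were well above background on an array and none was saturated. Dnm1l had levels of 1.02, 0.81, 0.66 and 0.54 in Cont, Drp1LiKO, Cont_refed and Drp1LiKO_refed, but whether its probe lies in the deleted part is not known, so it does not check the genotype. All 6 hepatocyte markers were well above background on every array, and none of 4 adipocyte markers was on any. The summed level of the hepatocyte markers was 11.19 in Cont and 10.65 in Drp1LiKO, and 11.5 and 10.96 after refeeding. Cps1 alone of these markers was higher in Drp1LiKO, at 3.575 against 2.974 after fasting and 3.455 against 2.219 after refeeding. In such bulk RNA fewer cells of a type and less RNA per cell cannot be told apart.

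Refeeding as a readout of insulin action was examined first, within each genotype. In Cont, 3 of the 10 genes were at least 2-fold lower in the refed than in the fasted liver, namely Igfbp1, Irs2 and Grb10, and none was at least 2-fold higher. Without Grb10, which was lost under normexp background correction, 2 were lower. Across all 16331 genes tested in that pair, 5.87% were lower and 4.5% higher by this rule. In Drp1LiKO, 5 genes were at least 2-fold lower (Igfbp1, Irs2, Insr, Igfbp2 and Grb10) and 1 was higher (Pik3r1), against 7.17% lower and 5.62% higher of 18277 genes. The median difference of the 10 genes was -0.33 in Cont and -0.68 in Drp1LiKO, where the medians of all genes tested were 0.09 and 0.08. With the dim side of Grb10 read at its bound, the Drp1LiKO median of the 10 genes was -0.30.

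**Figure D1:**
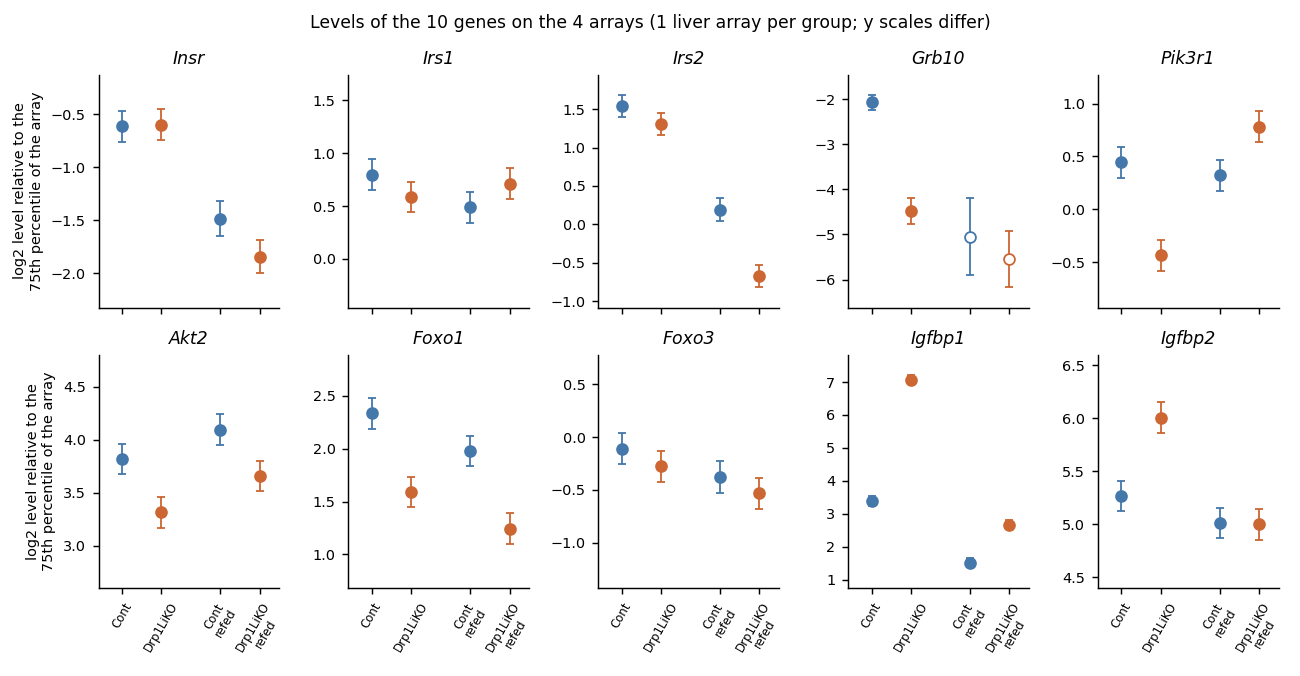
Log2 level relative to the 75th percentile of the array (y axis, a separate scale for each gene) of the 10 genes on the 4 arrays (x axis), with bars for the measurement SE of 1 array and open circles for signals not well above background. Igfbp1 stands at 7.08 in the fasted Drp1LiKO liver against 3.40 in the fasted Cont liver. Irs2 and Insr, on the probes shown, are lower on both refed arrays than on both fasted arrays.

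Insr encodes the insulin receptor, the first step of the pathway. Its level was -0.61 in Cont and -0.60 in Drp1LiKO, and -1.49 and -1.85 in the corresponding refed livers. On this probe both refed arrays were below both fasted arrays, and the fasted levels of the genotypes differed by less than the measurement SE (0.02 ± 0.21). The refeeding difference was -0.87 ± 0.22 in Cont and -1.25 ± 0.21 in Drp1LiKO, 1.83-fold and 2.37-fold lower. The other probes of Insr, which lie 2357 and 3805 bases away on mm9, gave smaller values, -0.01 and -0.20 in Cont and -0.38 and -0.33 in Drp1LiKO. The Insr count in Drp1LiKO therefore rests on 1 of its 3 probes. On the other probes the Cont_refed levels, -2.31 and -1.39, lay above those of fasted Drp1LiKO, -2.33 and -1.69. The more distant of these probes also placed Drp1LiKO below Cont, by -0.49 ± 0.22 after fasting and -0.63 ± 0.24 after refeeding, and the median over probes gave -0.49 after fasting.

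Irs2, the substrate whose mRNA FoxO1 raises during fasting, had levels of 1.54 in Cont, 1.31 in Drp1LiKO, 0.19 in Cont_refed and -0.67 in Drp1LiKO_refed. Refed levels were thus below fasted ones in both genotypes, with the lowest level in the refed Drp1LiKO liver. The refeeding difference was -1.35 ± 0.21 in Cont, 2.56-fold lower, and -1.98 ± 0.21 in Drp1LiKO, 3.95-fold lower. Of all genes tested, 3.89% lay below the first value and 2.68% below the second. The genotypes were close after fasting (-0.24 ± 0.20, Drp1LiKO minus Cont) and Irs2 was 1.82-fold lower in Drp1LiKO after refeeding (-0.86 ± 0.21).

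Irs1, the other main substrate in hepatocytes, varied little. Its levels were 0.80, 0.59, 0.49 and 0.71 in Cont, Drp1LiKO, Cont_refed and Drp1LiKO_refed, a range of 0.31, the smallest of the 10 genes. The refeeding difference was -0.31 ± 0.21 in Cont and 0.13 ± 0.20 in Drp1LiKO. A dimmer probe of Irs1 gave -0.70 ± 0.47 and 0.60 ± 0.29 for the same differences, with its Cont_refed signal not well above background.

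Grb10 encodes an adaptor that binds the activated receptor and inhibits it. Its level was -2.06 in Cont and -4.48 in Drp1LiKO, and its signals on both refed arrays, at -5.05 and -5.55, were not well above background. Only the fasted livers gave a signal well above background, and it was dimmer in Drp1LiKO. In Cont, Grb10 was at least 2.80-fold lower after refeeding, counted against the lowest level well above background on that array. Normexp correction, which adds an offset of 50 to every signal and so draws dim signals together, gave a difference of only -0.78. In Drp1LiKO that bound allows only 1.05-fold, although the measured difference of -1.07 ± 0.69 put Grb10 among the lower genes. After fasting it was 5.33-fold lower in Drp1LiKO than in Cont (-2.41 ± 0.33; -1.30 with normexp), and no fold is given after refeeding.

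Pik3r1, the p85 alpha subunit that ties PI3-kinase to the IRS proteins, had a different order. Its levels were 0.45 in Cont, -0.43 in Drp1LiKO, 0.32 in Cont_refed and 0.78 in Drp1LiKO_refed, so that the Drp1LiKO livers held both the lowest and the highest level. Refeeding made a difference of -0.12 ± 0.21 in Cont, within the measurement SE, and of 1.21 ± 0.20 in Drp1LiKO, 2.32-fold higher. Drp1LiKO was 1.84-fold below Cont after fasting (-0.88 ± 0.21) and 1.37-fold above it after refeeding (0.46 ± 0.21). The summed level of 4 neutrophil markers was 2.05, 1.20, 2.21 and 3.12 on the arrays in the same order, with 3, 3, 3 and 4 of them well above background. That order was set by S100a8 and S100a9, while Ly6g and Mpo had their lowest levels in Cont. Macrophage markers were also highest in Drp1LiKO_refed, at 6.57, 6.77, 6.73 and 7.53. Other orders were seen for stellate markers (5.54, 6.07, 5.71 and 5.90) and endothelial markers (5.77, 5.51, 5.85 and 5.29). The same held for lymphocyte markers (1.20, 0.72, 1.51 and 1.04) and cholangiocyte markers (-1.06, 0.08, -0.88 and -0.001). The part of any of these cell types in the Pik3r1 values was not tested.

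Akt2 encodes the main AKT kinase of insulin-responsive tissues. Its levels were 3.82, 3.32, 4.10 and 3.66 in Cont, Drp1LiKO, Cont_refed and Drp1LiKO_refed. Each Drp1LiKO level was below the Cont level of the same feeding state, by 0.51 and 0.44 with a measurement SE of 0.20 for each. Refeeding differences were small, 0.27 in Cont and 0.34 in Drp1LiKO. A probe that overlaps the main one by 53 bases gave differences within 0.04 of these in all 4 comparisons, so it is not separate evidence. A probe 6179 bases away gave the opposite sign for genotype, 0.21 ± 0.21 after fasting and 0.12 ± 0.21 after refeeding, and the remaining probe gave -0.25 ± 0.23 and -0.50 ± 0.26.

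Foxo1, the transcription factor that AKT excludes from the nucleus, was lower in Drp1LiKO in both feeding states. Its levels were 2.33 in Cont and 1.59 in Drp1LiKO, and 1.98 and 1.24 in the refed livers. The genotype difference was -0.74 ± 0.20 after fasting and -0.73 ± 0.20 after refeeding, 1.67-fold and 1.66-fold. A second probe 3106 bases away gave -0.60 and -0.59. Refeeding differences were -0.36 in Cont and -0.35 in Drp1LiKO, so both effects had nearly the same size in either background. The summed hepatocyte markers were lower on the same Drp1LiKO arrays, by the levels given above, although Cps1 among them was higher. The part of these markers in the values of Foxo1 and Akt2 was not tested.

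Foxo3, a related factor that AKT also phosphorylates, had levels of -0.11, -0.28, -0.38 and -0.53 in Cont, Drp1LiKO, Cont_refed and Drp1LiKO_refed. Its 4 differences lay between -0.26 and -0.15, each with a measurement SE of 0.21. These values come from a probe designed on a cDNA clone, and the probe on the reference transcript, 61678 bases away, stayed near background on all 4 arrays.

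Igfbp1 encodes a binding protein that the liver secretes during fasting and that limits free IGF. Its scanner signal was 4846 in Cont, 97364 in Drp1LiKO, 1022 in Cont_refed and 3346 in Drp1LiKO_refed, which are levels of 3.40, 7.08, 1.52 and 2.67. The fasted Drp1LiKO liver stood far above the other livers, and the refed Drp1LiKO liver lay below the fasted Cont liver. The refeeding difference was -1.88 ± 0.20 in Cont, 3.68-fold lower, and -4.41 ± 0.20 in Drp1LiKO, 21.2-fold lower. Only 0.427% of the genes tested lay below the Drp1LiKO value. After fasting Igfbp1 was 12.8-fold higher in Drp1LiKO than in Cont (3.68 ± 0.20), and after refeeding 2.22-fold higher (1.15 ± 0.20). Igfbp1 was read by 1 probe, as were Irs2, Pik3r1 and Grb10, so their values have no second probe beside them.

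Igfbp2, another secreted binding protein made by hepatocytes, had levels of 5.27 in Cont, 6.00 in Drp1LiKO, 5.01 in Cont_refed and 5.0 in Drp1LiKO_refed. Here too the fasted Drp1LiKO liver stood above the other livers, which lay between 5.0 and 5.27. The refeeding difference was -0.26 ± 0.20 in Cont and -1.01 ± 0.20 in Drp1LiKO, which at 2.01-fold was barely past the threshold. Drp1LiKO was 1.67-fold above Cont after fasting (0.74 ± 0.20), and the genotypes differed by -0.01 ± 0.20 after refeeding. A second probe, 136 bases away, agreed within 0.12 in each comparison.

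**Figure D2:**
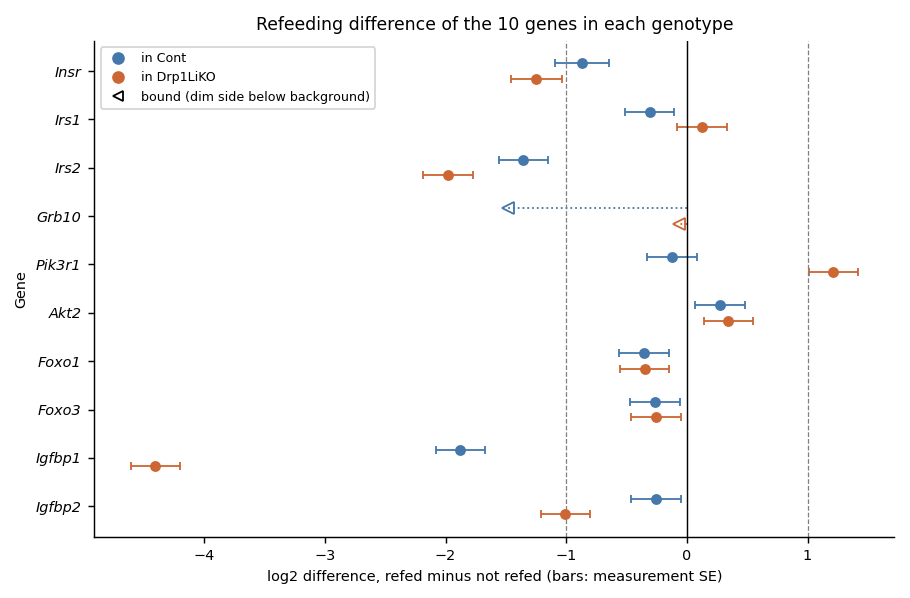
Log2 refeeding difference, refed minus fasted (x axis), of the 10 genes (y axis) in Cont (blue) and Drp1LiKO (orange), with bars for the measurement SE, dashed lines at 2-fold and open triangles for bounds where the refed signal was below background. Igfbp1 is at -1.88 in Cont and -4.41 in Drp1LiKO, and Pik3r1 is at -0.12 and 1.21.

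The difference between the refeeding differences, Drp1LiKO minus Cont, was then compared for the 9 genes measured above background throughout. It was -2.53 ± 0.29 for Igfbp1, and 0.152% of the 14447 genes compared lay below it. For Pik3r1 it was 1.34 ± 0.29, and 99.1% of genes lay below. By the 2-fold rule these were the 1 lower and the 1 higher gene of the 9, against 2.38% lower and 1.87% higher among all genes. Igfbp2 (-0.75 ± 0.29) and Irs2 (-0.63 ± 0.29) came next in size. Irs1 (0.43), Insr (-0.38), Akt2 (0.07), Foxo3 (0.01) and Foxo1 (0.01) were within 1.5 times the measurement SE. No test of these differences was possible with 1 array per group.

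**Figure D3:**
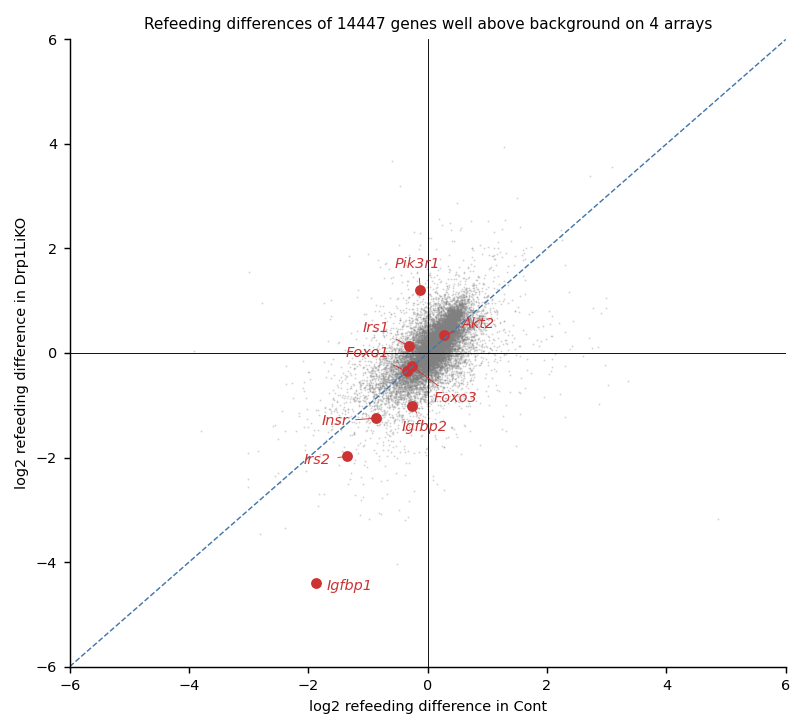
Log2 refeeding difference in Drp1LiKO (y axis) against that in Cont (x axis) for 14447 genes (grey), each well above background on the 4 arrays, with the 9 such members in red and a dashed line where both are equal. Igfbp1, at -1.88 and -4.41, lies at the lower edge of all genes, while Foxo1, Foxo3 and Akt2 lie close to the line.

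Between genotypes, 1 of the 10 genes was at least 2-fold higher (Igfbp1) and 1 at least 2-fold lower (Grb10) in Drp1LiKO after fasting. Among all 17678 genes tested there, 8.22% were higher and 5.29% lower. After refeeding, 9 of the 10 were tested, of which 1 was higher (Igfbp1) and none lower, against 8.25% and 6.49% of 17019 genes. The median genotype difference of the members was -0.22 after fasting and -0.15 after refeeding, and that of all genes was -0.07 and -0.03. The comparisons of feeding and of genotype use the same 4 arrays, so the Igfbp1 signal of the fasted Drp1LiKO array enters the refeeding and the genotype difference alike.

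**Figure D4:**
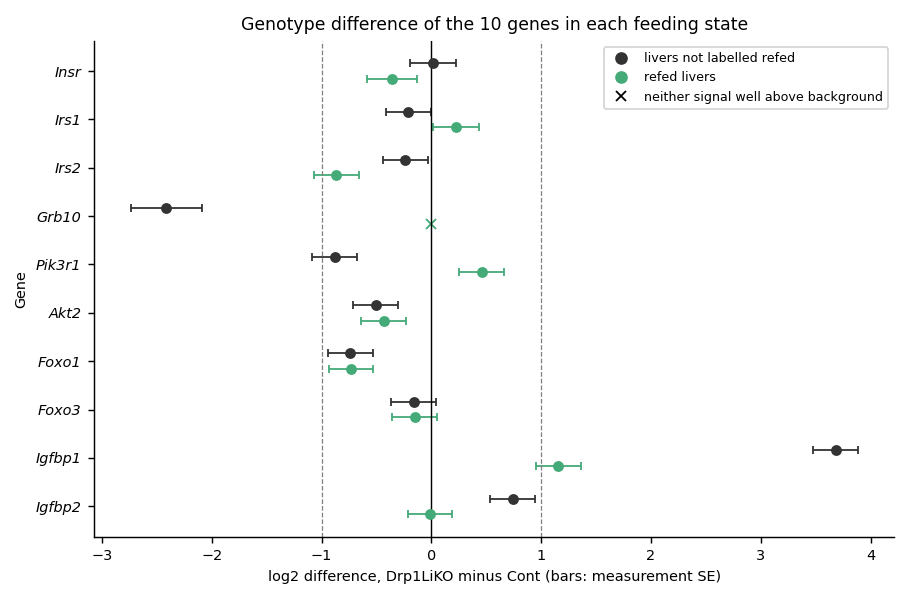
Log2 genotype difference, Drp1LiKO minus Cont (x axis), of the 10 genes (y axis) in the livers read as fasted (black) and in the refed livers (green), with bars for the measurement SE, dashed lines at 2-fold and a cross at 0 where neither signal was well above background. Foxo1 stands at -0.74 and -0.73 in the 2 states, whereas Igfbp1 stands at 3.68 and 1.15.

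An additive limma model over genotype and feeding state was the only test these arrays allow. It has 1 residual degree of freedom and takes any interaction as error. Of 16744 genes, none passed a Benjamini-Hochberg adjusted p under 0.05 for feeding or for genotype (0% called in each direction), while 4414 and 4746 had an unadjusted p under 0.05. All 10 genes were in the fit. For feeding, Insr, Irs2 and Igfbp1 each had a limma adjusted p of 0.169, with effects of -1.06, -1.67 and -3.14, lower in 2 of 2 refed livers. No gene had a smaller adjusted p for feeding, but the adjustment gave this same value to many genes. It therefore does not rank these members first. With the median over probes, the feeding effect of Insr was only -0.31, while Irs2 and Igfbp1, with 1 probe each, kept theirs. For genotype, Foxo1 had a limma adjusted p of 0.108 with an effect of -0.74, lower in 2 of 2 Drp1LiKO livers, and Igfbp1 one of 0.146 with an effect of 2.42.

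The genes known to be raised by FoxO1 in the fasted liver were counted next, from a list of 15 that includes Igfbp1, Irs2 and Insr. In Cont, 4 of 14 tested were at least 2-fold lower after refeeding and 2 were higher. In Drp1LiKO 6 of 15 were lower, among them these members, and 1 was higher. The 6 also held Ccng2 (-2.95 ± 1.17), a dim gene named after its values were seen. Its signal was well above background on the fasted Drp1LiKO array alone, so it was tested there but not in Cont. Of all genes tested, 5.87% were lower and 4.5% higher in Cont and 7.17% and 5.62% in Drp1LiKO. With normexp, 2 of the list were lower in Cont and 4 in Drp1LiKO. Normexp also cut the lower genes over all genes, from 958 to 287 in Cont and from 1311 to 387 in Drp1LiKO. The list's median was -0.45 in Cont and -0.83 in Drp1LiKO, beside 0.09 and 0.08 for all genes. Pdk4, the kinase that shuts off pyruvate oxidation, was at -1.24 ± 0.24 (-0.73 with normexp) in Cont and -2.10 ± 0.21 in Drp1LiKO, and was 1.24 ± 0.21 above Cont in the fasted Drp1LiKO liver. Ppargc1a, the coactivator of glucose production, was at -1.02 ± 0.22 in Cont and -0.85 in Drp1LiKO. The median over its probes gave -0.77 and -1.41, the opposite order, and normexp -0.66 and -0.63. The enzymes of glucose production did not move as 1 block. Pck1, which makes phosphoenolpyruvate, was at -0.63 in Cont and -1.60 ± 0.20 in Drp1LiKO. G6pc, which releases free glucose, was 1.38 ± 0.20 higher in the refed Cont liver and at -0.74 in Drp1LiKO, so that Drp1LiKO lay below Cont by 1.90 ± 0.20 after refeeding. Bcl6, a transcriptional repressor, was higher after refeeding in both genotypes, at 1.49 ± 0.20 and 2.97 ± 0.20, and at -1.05 ± 0.20 (-0.95 with normexp) in Drp1LiKO against Cont after fasting. By genotype, 2 of 15 listed genes were higher and 1 lower after fasting, and 1 of 14 was higher and 1 lower after refeeding, where all genes had 8.22% higher and 5.29% lower, and 8.25% and 6.49%. Median scaling gave 2 lower after fasting and normexp none, where 1060 and 569 of all genes were lower, against 936 in the main setting.

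Genes that insulin raises in the fed liver showed the opposite balance. Of 10 tested among 12 listed, 4 were at least 2-fold higher after refeeding in Cont and 6 in Drp1LiKO, and none was lower in either. Among all genes 4.5% and 5.62% were higher. The medians of the list were 0.68 and 1.17, beside 0.09 and 0.08 for all genes. Angptl8, a secreted regulator of lipoprotein lipase, was 3.09 ± 0.20 higher in Cont and 3.56 ± 0.20 higher in Drp1LiKO. Thrsp, a promoter of fat synthesis, was 2.71 ± 0.20 and 3.39 ± 0.20 higher, from levels of 3.15 in the fasted Cont and 1.15 in the fasted Drp1LiKO liver. Thrsp was thus below Cont in Drp1LiKO in both states, with differences of -2.0 and -1.32. Srebf1, which encodes the fat synthesis factor SREBP1, was at -1.65 ± 0.23 in Drp1LiKO against Cont after fasting, and Scd1, the stearoyl-CoA desaturase, at -2.13 ± 0.20 after refeeding. Egr1, an early response gene, was above Cont by 2.55 ± 0.21 and 1.68 ± 0.21 in these states. In each state 3 of the 10 genes were at least 2-fold lower and 1 was higher in Drp1LiKO, with medians of -0.71 and -0.24 beside -0.07 and -0.03 for all genes, of which 5.29% and 6.49% were lower. With median scaling, quantile normalization, normexp or the authors' values, 2 of the 10 were lower after refeeding between genotypes in place of 3. After fasting, median scaling and the authors' values gave 4 lower. With quantile normalization, 2 were at least 2-fold lower after refeeding in Drp1LiKO, Scd1 and Mlxipl, the latter named after its values were seen. The authors' values also gave 2 there.

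**Figure D5:**
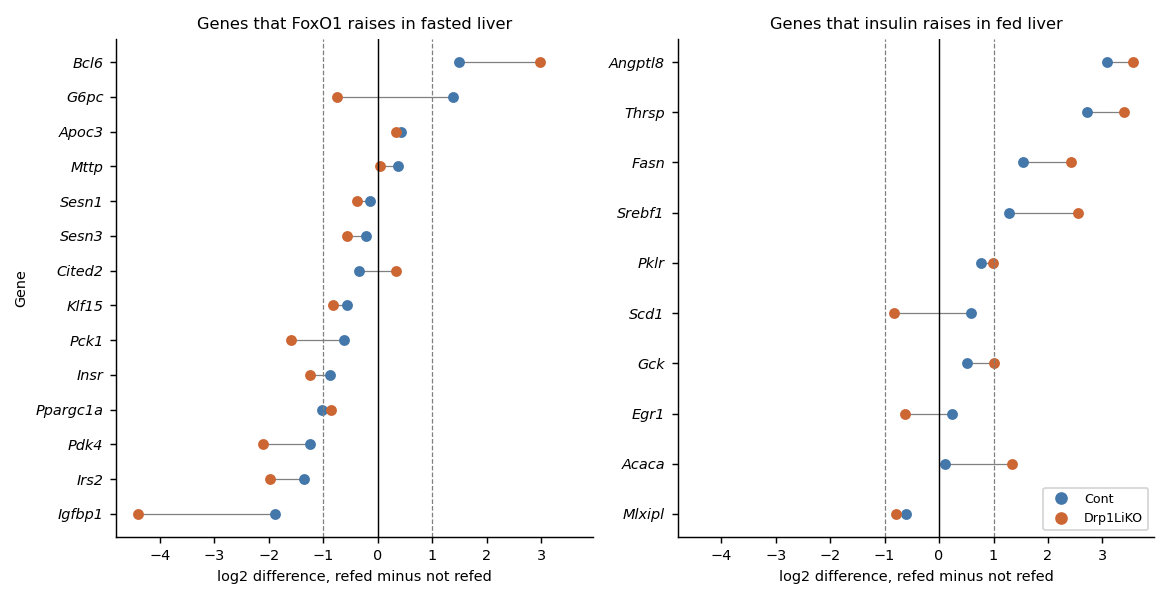
Log2 refeeding difference, refed minus fasted (x axis), for listed genes measured above background throughout (y axis), in Cont (blue) and Drp1LiKO (orange), with dashed lines at 2-fold. The left panel holds 14 genes raised by FoxO1 in fasting, from Igfbp1 at the bottom to Bcl6 at the top, and the right panel holds 10 genes raised by insulin, with Angptl8 at 3.09 and 3.56.

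Other genes of the pathway were read from lists of 10 receptor, substrate and adaptor genes, 10 brakes on the receptor, 10 genes of PI3-kinase and lipid phosphatases, 12 of AKT and its regulators, 7 of the mTORC1 branch, 8 of FoxO factors and partners, and 9 of IGF and its binding proteins. Among the brakes, Trib3, a pseudokinase that can bind AKT, was 4.02 ± 0.20 above Cont in the fasted and 3.43 ± 0.20 above it in the refed Drp1LiKO liver. Socs3, which blocks cytokine and insulin receptor signaling, was lower after refeeding in both genotypes, at -2.15 ± 0.21 and -1.20 ± 0.21. Socs1, of the same family, was 1.09 ± 0.23 higher after refeeding in Drp1LiKO and 1.40 ± 0.33 above Cont in the refed state, which normexp reduced to 0.78 and 0.51. Enpp1, a membrane enzyme that inhibits the receptor, was 1.06 ± 0.21 higher after refeeding in Cont and at -1.53 ± 0.21 in refed Drp1LiKO against refed Cont, but the median over its probes gave 0.61 and -0.87. The brakes as a list had 1 gene higher and 2 lower of 10 after refeeding in each genotype, and by genotype 1 higher and 1 lower of 10 after fasting and 2 higher and 1 lower of 9 after refeeding. Over all genes these shares were between 4.5% and 8.25% higher and between 5.29% and 7.17% lower in the 4 comparisons, so a single gene of 10 is near the background. With normexp, no brake was higher and 1 was lower after refeeding in each genotype. Over all genes normexp left 439 higher and 287 lower in Cont, and 501 and 387 in Drp1LiKO. The medians of the 7 lists lay between -0.36 and 0.52 in the 4 comparisons, beside -0.07 to 0.09 for all genes.

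Of the PI3-kinase list, Pik3r3, a further regulatory subunit, was at -1.62 ± 0.28 after refeeding in Cont and 1.01 ± 0.24 in Drp1LiKO, with Drp1LiKO at -2.12 ± 0.23 against Cont after fasting. Normexp kept these signs, with -0.87, 0.66 and -1.45. Its levels were -1.05 in Cont, -3.18 in Drp1LiKO, -2.68 in Cont_refed and -2.16 in Drp1LiKO_refed, so that, as with Pik3r1, the fasted Drp1LiKO liver held the lowest level and refeeding differences had opposite signs. Pik3ca, a catalytic subunit, was at -1.13 ± 0.25 after refeeding in Drp1LiKO, and Rictor, a core part of the mTORC2 complex that phosphorylates AKT, at -1.03 ± 0.33 in Cont and -1.30 ± 0.24 in Drp1LiKO. With normexp these became -0.51 for Pik3ca and -0.29 and -0.62 for Rictor. The PI3-kinase list had 1 of 10 lower after refeeding in Cont, 2 higher and 1 lower in Drp1LiKO, and 1 lower by genotype after fasting. Over all genes the shares were 5.87% lower in Cont, 5.62% higher and 7.17% lower in Drp1LiKO, and 5.29% lower by genotype after fasting. Rictor was the 1 lower gene among 12 of the AKT list in both genotypes, and none of that list was 2-fold apart between genotypes. Normexp left no gene of the AKT list at 2-fold, and the median over probes gave 2 lower in Cont, 1 higher and 1 lower in Drp1LiKO, and 1 lower by genotype after fasting. The mTORC1 branch had no gene at 2-fold among the 6 tested in any comparison or scaling. Among FoxO factors and partners, 1 of 5 was lower after refeeding in Cont (Ppargc1a) and 1 of 8 in Drp1LiKO (Foxo4). In Drp1LiKO against Cont, 2 of 7 were higher after refeeding (Creb1 and Foxo6), where all genes had 8.25%. Foxo4, Creb1 and Foxo6 were dim genes named after their values were seen, and normexp left none of these 4 calls.

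In the receptor list, Igf1r, the IGF-1 receptor, was at -1.07 ± 0.26 after refeeding in Drp1LiKO. There 4 of 10 genes were lower and none higher, against 7.17% and 5.62% of all genes. The 4 were Igf1r, the members Insr and Irs2, and Gab1, a dim gene named after its values were seen. Normexp gave -0.36 for Igf1r and 1 lower gene in the list, and the other settings gave 3. Over all genes normexp left 387 lower there, against 1311 in the main setting. Irs4, a minor substrate, was at -1.11 ± 0.23 in Drp1LiKO against Cont after fasting, and at -0.83 with normexp and -0.97 with the median over probes. In the list of IGF binding proteins, Igfbp3, the main carrier of circulating IGF, was 1.36 ± 0.30 above Cont in the fasted Drp1LiKO liver on its main probe, but only 0.23 with the median over probes and 0.46 with normexp. Its refed difference turned from 0.31 to -0.35 with the median over probes. Igfals, which stabilizes that carrier, was at -1.37 ± 0.20 after fasting. In this list 2 of 9 genes were higher and 1 was lower in Drp1LiKO after fasting, against 8.22% and 5.29% of all genes. Igfbp1 alone was higher after refeeding, where all genes had 8.25%. The fasted count of higher genes was 1 with normexp or the median over probes and 3 with quantile normalization or the authors' values. No listed gene was called by limma for feeding or genotype.

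For Igfbp1, Irs2 and Insr, the members with the widest range over the arrays among those above background throughout, the genes with the most similar pattern were found as the smallest Euclidean distance between log2 levels centred over the 4 arrays, among 14447 genes. Nearest to Igfbp1 were Cdkn1a (1.46), Acot2 (1.64) and Ugt1a10 (2.02), set beside a range of 5.56 for Igfbp1 itself. Cdkn1a, a cell cycle inhibitor, was 3.0 above Cont in the fasted and 1.88 above it in the refed Drp1LiKO liver. Nearest to Irs2 were the sodium bicarbonate cotransporter Slc4a4 (0.09), a transcript listed as AK076101 (0.11) and the circadian repressor Nr1d1 (0.16). Nr1d1 had refeeding differences of -1.48 in Cont and -2.15 in Drp1LiKO, beside -1.35 and -1.98 for Irs2. The hours of collection may have differed between the feeding states, as described above. Nearest to Insr were BC040756 (0.10), Mtx3 (0.12) and C130045F17Rik (0.12). With 4 arrays, a short distance describes these 4 values only.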

How the data were processed

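The authors deposited scanner files with 1 processed intensity per spot, background-subtracted within the array by Agilent Feature Extraction (10.7.1.1 in the file headers, 9.5.1.1 in the submitters' processing notes). They also deposited a table of intensities normalized between arrays, which were put on the log2 scale here. The study's methods name another RNA kit and array design than the labels, whose design the files carry. Signals were put on the log2 scale relative to each array's 75th percentile, repeated spots were averaged and spots flagged as outliers left out, which removed 37 of 39429 probes. Genes with more than 1 probe were read from the probe detected over background most often, with ties settled by mean signal. Names were updated by accession (26761 of 28389 matched, GRCm38.p6). Probe positions are those of mm9 in the files. A dim signal was bounded by the higher of its own level and the lowest level well above background on its array. The limma model used genes detected over background on 2 or more arrays, and its code was tested on simulated data.

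Named were the 10 members with all their probes and the 3 nearest genes of the 3 members with the widest range. Of other genes, the 2 highest and 2 lowest per list and comparison were named, if well above background on both arrays and at least 2-fold apart. Members and lists were chosen with earlier results of these data known. Alternatives were median scaling, quantile normalization, normexp with an offset of 50, the authors' values, the median over probes, other filters and a 1.5-fold threshold. All 4 arrays lay on 1 slide. Arrays give no counts, and their number limits the precision. Software was Python 3.11.15, pandas 2.3.3, R 4.3.3 and limma 3.58.1.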

Additional observations from a re-analysis of the deposited data

Results flagged for a closer look

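Genes are given here because an effect had opposite signs in the 2 genotypes or in the 2 feeding states. Each effect comes from 1 pair of arrays, the difference was not tested, and several effects were within the measurement SE of 0. Among the 10 genes, refeeding gave -0.12 in Cont and 1.21 in Drp1LiKO for Pik3r1, and the genotype difference went from -0.88 after fasting to 0.46 after refeeding, a change of 1.34 in both readings. Irs1 changed by 0.43, from -0.31 to 0.13 for refeeding and from -0.21 to 0.22 for genotype. The genotype difference of Insr changed by -0.38, from 0.02 to -0.36, and that of Igfbp2 by -0.75, from 0.74 to -0.01.

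In the pathway lists, Pik3r3 changed by 2.64 (refeeding -1.62 and 1.01, genotype -2.12 and 0.51) and G6pc by -2.12 (refeeding 1.38 and -0.74, genotype 0.23 and -1.90). For refeeding, Scd1 changed by -1.41, Enpp1 by -1.39, Igfbp3 by -1.05, Egr1 by -0.86 and Trib3 by -0.59 from Cont to Drp1LiKO, each from a positive to a negative value. For genotype, Bcl6 changed by 1.48 and Angptl8 by 0.46 from the fasted to the refed state, from negative to positive, and Igf1r by -1.07, Pck1 by -0.97 and Rictor by -0.27, from positive to negative.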

How the results depend on the processing

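With 1 array per group, no replicate could be left out and nothing here measures the spread between mice. No paired analysis was possible because no group held a second array. The 14 member differences of at least 2-fold kept their sign in 70 of 70 recalculated values, and the 34 smaller ones in 161 of 170. For the larger ones a change of sign was hardly possible, since the scalings moved medians by far less than 2-fold. Igfbp1, Irs2, Grb10 and Pik3r1 have 1 probe each, so for them the median over probes repeats the main value. The median refeeding difference of the members in Drp1LiKO was -0.29 with normexp and -0.36 with the median over probes, and the fasted genotype median was -0.47 with the median over probes. In Drp1LiKO, 3 members were lower after refeeding with median scaling and with normexp. Over all genes, 1150 and 387 were lower there, against 1311 in the main setting. After fasting, 2 members were higher in Drp1LiKO with quantile normalization, the authors' values or a 1.5-fold threshold. Over all genes, these settings gave 1388, 1392 and 2595 higher, against 1454 in the main one. With the 1.5-fold threshold 3 members were lower after fasting and 2 after refeeding. That threshold gave 2490 and 2676 lower over all genes, against 936 and 1105 in the main setting. Reading dim signals at their bound was added after the data had been seen. It left 4 members, and 868 of all genes, lower after refeeding in Drp1LiKO. With genes well above background on all 4 arrays, limma called 15 genes for feeding and 1214 for genotype, Foxo1 among the latter (limma adjusted p = 0.0469, over all settings 0.0469 to 0.137). For genotype it called 319 genes with median scaling, 498 with normexp and 474 with an intensity trend, none of them a member. The median of genes on all arrays moved by over 0.1 between scalings, from 0.04 to 0.21 for refeeding in Drp1LiKO and from -0.18 to -0.01 for genotype after fasting. The signals of Grb10 and of the second probe of Foxo3 were limited by background.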
